A study of Rattus norvegicus with 9 samples.

Results

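The genes that make, carry and sense retinoic acid were followed in adipose-derived mesenchymal stem cells (ASCs) grown from 3 rat fat depots. The 9 genes, of 35362 in the deposited table, were chosen by name for their function, with earlier results of these data known. They are the retinaldehyde dehydrogenases Aldh1a1, Aldh1a2 and Aldh1a3, the binding proteins Rbp4, Crabp1 and Crabp2, and the retinoic acid receptors Rara, Rarb and Rarg. RNA sequencing covered ASCs from subcutaneous fat of the groin (SASCs), perirenal fat (PASCs) and epididymal fat (EASCs), with 3 samples per group. All groups came from male Sprague Dawley rats aged 6 weeks, 6 in the study, which by the methods were starved before the cells were isolated. No other treatment and no genetic change is given, and the cells were plastic-adherent cultures at passage 3. The methods describe 6 replicates per group, with RNA taken from each culture well, and 3 samples per group were analysed here. Whether the wells of a group held cells of different rats is not stated, so the p-values measure only the spread between these samples, which may be technical. The comparison asks how the 2 visceral depots differ from the subcutaneous depot and from each other.

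Vitamin A circulates as retinol bound to RBP4. Cells oxidize it first to retinaldehyde and then, through the retinaldehyde dehydrogenases, irreversibly to retinoic acid. Cellular retinoic acid-binding proteins hold the product in the cytosol, and the receptors RARα, RARβ and RARγ, paired with retinoid X receptors, bind retinoic acid response elements near target genes. In fat, retinoic acid is known to restrain the conversion of preadipocytes to adipocytes, and RBP4 is secreted by adipocytes as well as by the liver.

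Rarb is the textbook example of a gene that carries a response element for its own class of receptor, so its promoter is shown beside its values. The RefSeq promoter window of 300 bases lies at chr15:11336142-11336441 (GRCr8, + strand), and the capitals mark a direct repeat of half-sites separated by 5 bases (DR5).
Rarb promoter: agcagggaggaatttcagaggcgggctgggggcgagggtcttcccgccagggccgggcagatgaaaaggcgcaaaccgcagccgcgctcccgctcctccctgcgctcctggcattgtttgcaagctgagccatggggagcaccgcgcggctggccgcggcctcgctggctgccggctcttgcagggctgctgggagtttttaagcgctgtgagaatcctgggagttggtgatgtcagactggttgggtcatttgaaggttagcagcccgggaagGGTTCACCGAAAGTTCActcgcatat
The repeat ran in the sense direction from position 25 to position 41, counted from the start annotated by RefSeq. That start may differ from the start of transcription used in these cells, so the repeat's place relative to it is not known. A search of both strands took the consensus half-site AGGTCA and its variants, which were GGGTCA first, then AGTTCA, and last GGTTCA, in pairs spaced by 5 bases (DR5), 2 bases (DR2) or 1 base (DR1). All 9 genes matched a RefSeq promoter, Rarg with more than 1, and Rarb was the 1 gene of the 9 with any of these motifs. DR5 was present in 128 of 33469 rat promoters (0.382%), DR2 in 57 (0.17%) and DR1 in 78 (0.233%). In the wider list of other retinoid genes described below, 57 of 59 genes had a gene ID to match and 42 of these had a promoter, and only Cyp26a1, which encodes a retinoic acid hydroxylase, held a match, a DR5 on the opposite strand.
Cyp26a1 DR5: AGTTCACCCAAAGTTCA
The Cyp26a1 element lay from position -92 to position -76. A match describes the letters and does not show receptor binding.

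Read depth ranged from 17591916 to 30299032 counts per sample, so that 3 counts corresponded to 0.104 to 0.159 CPM, the count scaled to the library's size after TMM normalization. Ribosomal RNA genes took 10.4% to 15.5% of SASC counts, 22.4% to 33.0% of PASC counts and 15.9% to 40.3% of EASC counts. Marker lists for 8 cell types also differed between depots. The 10 mesothelial markers summed to 21.6 to 23.4 CPM for SASCs, to 227.3 to 229.1 for PASCs and to 192.6 to 206.9 for EASCs. Mesothelial markers called higher numbered 9 of 9 tested in PASCs and 8 of 9 in EASCs against SASCs. Krt18 was at 0 in SASCs and Krt19 at 0 in PASCs. The 6 adipocyte markers summed to 109.6 to 119.8 CPM for SASCs, to 32.9 to 39.1 for PASCs and to 17.7 to 18.8 for EASCs, with 4 of 4 tested lower in each visceral group. The 6 smooth muscle and mural cell markers summed to 159.8 to 171.6, 2829 to 3126 and 6317 to 6685 CPM for SASCs, PASCs and EASCs, with 5 of 6 higher and 1 lower in each visceral group against SASCs. The lower one, the pericyte marker Rgs5, was 7.19-fold lower in EASCs and 14.3-fold lower in PASCs. The 4 markers of dividing cells summed to 54.4 to 57.3, 443 to 457 and 257.5 to 268.7 CPM in the same order, and the 6 leukocyte markers to 37.8 to 41.4, 61.1 to 62.2 and 90.3 to 93.1 CPM. Of the leukocyte markers 5 of 6 were higher in EASCs and 3 of 6 in PASCs against SASCs. The 6 mesenchymal stem cell markers were abundant in all groups, at 3100 to 3206, 2017 to 2051 and 2025 to 2085 CPM. Within that list Pdgfra was 6.58-fold lower in EASCs and 5.55-fold lower in PASCs than in SASCs, while Eng was 3.41-fold higher in EASCs.

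Against SASCs, the EASCs showed higher Aldh1a3 and lower Rbp4, Crabp1 and Rarb, and the PASCs showed higher Aldh1a3 and lower Rbp4, Rarb and Aldh1a2. A gene was called changed when its fold change exceeded 2 and its Benjamini-Hochberg adjusted p in edgeR's quasi-likelihood test was under 0.05. Of the 9 genes, 7 had enough counts to be tested, Aldh1a1 and Crabp2 being the exceptions. In EASCs against SASCs, 1 of the 7 was higher and 3 were lower, beside 13.6% and 14.2% of all 14770 genes tested. In PASCs against SASCs, 1 was higher and 3 were lower, beside 12% and 14.9% of all genes. The same counts of the 7 genes were reached without TMM, where 1349 of all genes were higher and 3426 lower in EASCs, and 1262 higher and 3169 lower in PASCs. In EASCs against PASCs, Aldh1a2 was higher and Crabp1 lower, beside 5.19% and 2.2% of all genes. The median log2 fold change of the 7 genes was 0.42, -0.58 and 0.22 in these comparisons, against 0.01, -0.01 and -0.01 over all genes. The comparisons with SASCs share the same SASC samples. In these bulk cultures, fewer cells of a type and less RNA per cell cannot be told apart.

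**Figure D1:**
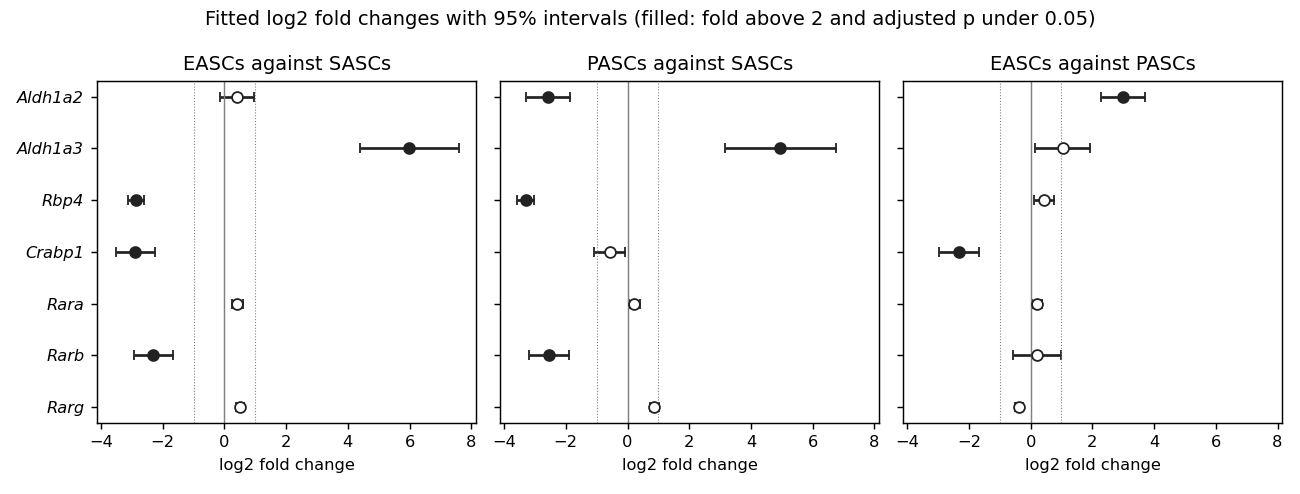
Fitted log2 fold changes (x axis) of the 7 retinoid genes tested (y axis) with 95% confidence intervals, 1 panel per comparison of 3 against 3 samples. Filled points passed both thresholds and dotted lines mark a fold change of 2. Rbp4 and Rarb lie to the left in both comparisons with SASCs, whereas Aldh1a2 and Crabp1 separate PASCs from EASCs. The Aldh1a3 values against SASCs rest on 1 count in SASCs and depend on the prior count.

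Aldh1a2 and Aldh1a3 encode RALDH2 and RALDH3, which carry out the last step of retinoic acid synthesis. Aldh1a2 (gene ID 116676, chromosome 8: 77640234 to 77719488) read 2.64, 2.97 and 1.56 CPM in SASCs, 0.306, 0.636 and 0.212 CPM in PASCs, and 2.93, 3.49 and 3.27 CPM in EASCs. All 3 PASC samples lay below every sample of the other groups, and the SASC and EASC samples overlapped narrowly, SASCs 2 lying above EASCs 1. Aldh1a2 fell by 2.58 on the log2 scale in PASCs against SASCs (SE 0.353, adjusted p = 3.265e-07). The EASC level exceeded that of PASCs by 2.99 on this scale (SE 0.344, adjusted p = 7.5e-08). The EASC and SASC levels differed by 0.42 (95% interval -0.13 to 0.96, adjusted p = 0.162), which did not pass the test. The PASC values rest on 8, 17 and 4 counts.

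The 5 endothelial markers were also lowest in PASCs, with a summed level of 11.5 to 14.3 CPM against 41.6 to 44.2 in SASCs and 29.3 to 32.1 in EASCs. Their called genes were 4 of 5 lower in PASCs against SASCs, with 1 of 5 higher, and 4 of 5 higher in EASCs against PASCs. None of the 5 was at 0 in any group, and their part in the Aldh1a2 result was not tested.

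Aldh1a3 (gene ID 266603, chromosome 1: 127302920 to 127337828, minus strand) was nearly silent in SASCs, with 1, 0 and 0 counts. It had 10, 23 and 9 counts in PASCs (0.383, 0.860 and 0.477 CPM) and 33, 28 and 24 counts in EASCs (1.38, 1.13 and 1.07 CPM). No sample of any group overlapped with another group. Over the group, the EASC level was 87.3 times that of SASCs (85 counts against 1, 95% counting interval 15.3 to 3487, adjusted p = 1.486e-07). The PASC level was 42.6 times that of SASCs (42 counts against 1, interval 7.24 to 1722, adjusted p = 1.566e-05). These ratios and intervals come from summed counts and cover counting error only. The adjusted p-values belong to edgeR's fit, whose folds were 63.65 for EASCs and 30.97 for PASCs. In a fit restricted to PASCs and SASCs, Aldh1a3 did not pass the filter on low counts and was not tested. EASCs exceeded PASCs by 1.04 on the log2 scale (SE 0.429, adjusted p = 0.0684), short of the threshold. It passed with the EASC and PASC samples alone (1.04, adjusted p = 0.045) and without PASCs replicate 2 (1.48, adjusted p = 0.0404). The rise of Aldh1a3 in both visceral groups ran beside the rise of the summed mesothelial, smooth muscle, leukocyte and dividing cell markers. The smooth muscle and leukocyte sums were highest in EASCs, as Aldh1a3 was, and the dividing cell sum was highest in PASCs. The mesothelial sum was also highest in PASCs, where Krt7 took 125.9 CPM against 61.8 in EASCs. The median log2 fold change of the mesothelial list in EASCs against PASCs was 0.43, with 1 gene called higher (Krt18) and 1 lower (Krt7). Their part in the Aldh1a3 result was not tested.

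Aldh1a1 (gene ID 24188, chromosome 1: 238222689 to 238264381), which encodes RALDH1, had 0 or 1 count in every sample and was not detectable above the floor of 3 counts. The 3 dehydrogenases were compared per length, as FPKM, which scales the deposited counts to the library's size and the gene's length. Within SASCs, Aldh1a2 made up 98.9% ± 0.996 (SD, n = 3) of the family's FPKM. Its share was 30.1% ± 7.16 in PASCs and 64.7% ± 4.72 in EASCs. Aldh1a3 held 0.627% ± 1.09 of it in SASCs, 67.2% ± 4.24 in PASCs and 35.0% ± 4.96 in EASCs. The ranges over samples did not overlap, since the Aldh1a3 share ran from 64.6% to 72.1% in PASCs, from 31.9% to 40.7% in EASCs and no higher than 1.88% in SASCs. The leading family member was Aldh1a2 in all samples of SASCs and EASCs and Aldh1a3 in all samples of PASCs. A share within a sample does not depend on how libraries are scaled. The summed level of the family was low throughout, at 1.08 ± 0.340 FPKM in SASCs, 0.558 ± 0.262 in PASCs and 2.22 ± 0.0801 in EASCs.

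**Figure D2:**
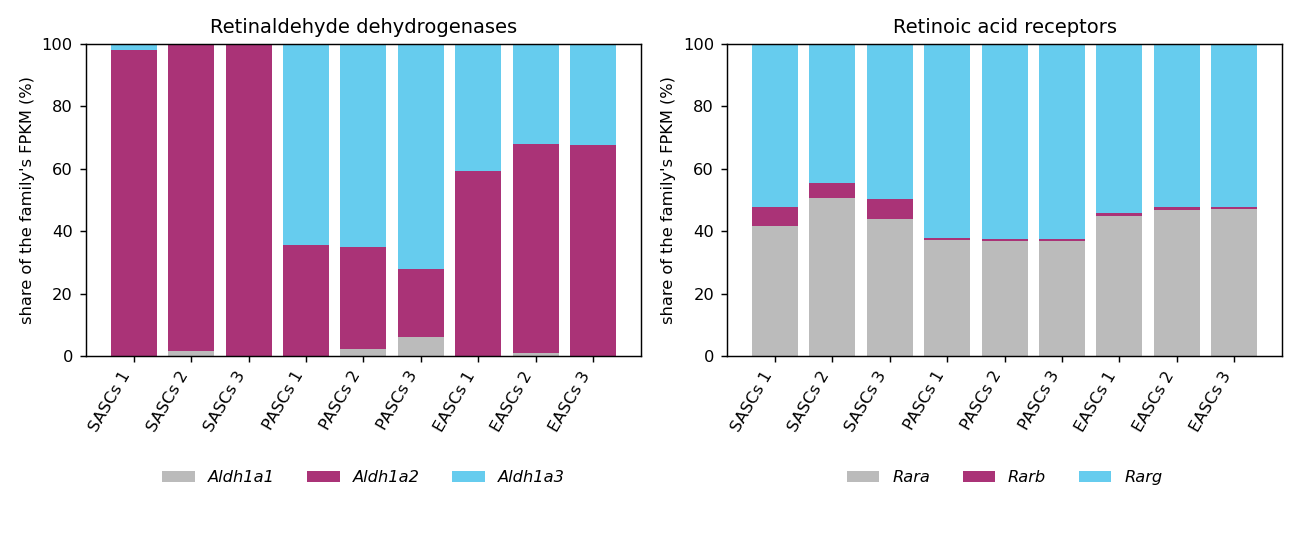
Share of the family's summed FPKM (y axis, %) held by each gene in each of the 9 samples (x axis), for the retinaldehyde dehydrogenases and the retinoic acid receptors. Aldh1a2 fills 98.1% or more of the first family in SASCs and Aldh1a3 64.6% or more in PASCs, and Rarb is 4.85% or more of the receptors only in SASCs, 1.04% or less elsewhere.

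Rbp4, the plasma carrier of retinol, was far higher in SASCs than in either visceral group. Rbp4 (gene ID 25703, chromosome 1: 256806476 to 256813678, minus strand) read 25.9, 28.2 and 24.0 CPM in SASCs, 3.06, 2.39 and 2.44 CPM in PASCs, and 3.60, 3.24 and 3.98 CPM in EASCs. Every SASC sample was far above every visceral sample, and all EASC samples were above all PASC samples. Rbp4 fell by 2.85 on the log2 scale in EASCs (SE 0.125, adjusted p = 2.325e-17). The fall in PASCs was larger, with a log2 fold change of -3.30 (SE 0.131, adjusted p = 2.528e-18). EASCs exceeded PASCs by 0.45 (SE 0.159, adjusted p = 0.0341), below the fold threshold of 2, and by 0.37 (adjusted p = 0.326) without TMM. Adipocyte markers fell in the same samples. Among them, Adipoq, which encodes adiponectin, read 27.2 ± 2.12 CPM (SD, n = 3) in SASCs, 9.68 ± 0.623 in PASCs and 4.25 ± 0.263 in EASCs. Plin1, which coats lipid droplets, read 27.9 ± 1.18, 3.66 ± 0.0343 and 1.27 ± 0.145 CPM. Plin1 and Adipoq were lower in EASCs than in PASCs, the opposite order from Rbp4. The part of adipocyte-like cells in the Rbp4 result was not tested.

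Crabp1 binds retinoic acid in the cytosol. Crabp1 (gene ID 25061, chromosome 8: 59344097 to 59352135) read 4.03, 3.57 and 3.47 CPM in SASCs, 2.22, 3.18 and 1.96 CPM in PASCs, and 0.754, 0.365 and 0.358 CPM in EASCs. The levels fell in steps from SASCs to PASCs to EASCs with no overlap between groups. EASCs were lower than SASCs, with a log2 fold change of -2.89 (SE 0.308, adjusted p = 3.817e-09), and lower than PASCs, at -2.32 (SE 0.320, adjusted p = 1.754e-06). The step from SASCs to PASCs was -0.58 (SE 0.245, adjusted p = 0.0382), under the fold threshold, and without PASCs replicate 3 it was -0.45 (adjusted p = 0.135). The EASC samples held 18, 9 and 8 counts. The summed adipocyte markers and the 6 melanocyte and Schwann cell markers also fell in this order. The latter summed to 39.5 to 43.8 CPM for SASCs, to 6.27 to 7.59 for PASCs and to 2.55 to 3.76 for EASCs, mostly from Mitf, and their defining genes Dct and Tyr were at 0 in all groups. Mitf was 14.6-fold lower in EASCs and 7.09-fold lower in PASCs than in SASCs, where Rbp4 and Rarb were also high. The part of either list in the results for these genes was not tested.

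Crabp2, the partner of Crabp1 that delivers retinoic acid to receptors, had 0 counts in all 9 samples. Its row (gene ID 29563, chromosome 2: 184882970 to 184883457) is a model of 299 bases that lies wholly inside Fam160a1, on the opposite strand, so the 0 belongs to that short model. A separate row, LOC100911902 (chromosome 2: 187321661 to 187326794), is described in the table as cellular retinoic acid-binding protein 2-like. It was looked up after the values were seen and is not one of the 9 genes. The counts were 10, 8 and 12 for SASCs, 18, 7 and 2 for PASCs, and 21, 15 and 24 for EASCs. The PASC samples overlapped both other groups. The row was not called in any comparison, with log2 fold changes of 1.02 in EASCs against SASCs (95% interval -0.02 to 2.06, adjusted p = 0.0761), -0.18 in PASCs against SASCs (-1.34 to 0.99, adjusted p = 0.795) and 1.20 in EASCs against PASCs (0.13 to 2.26, adjusted p = 0.083).

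**Figure D3:**
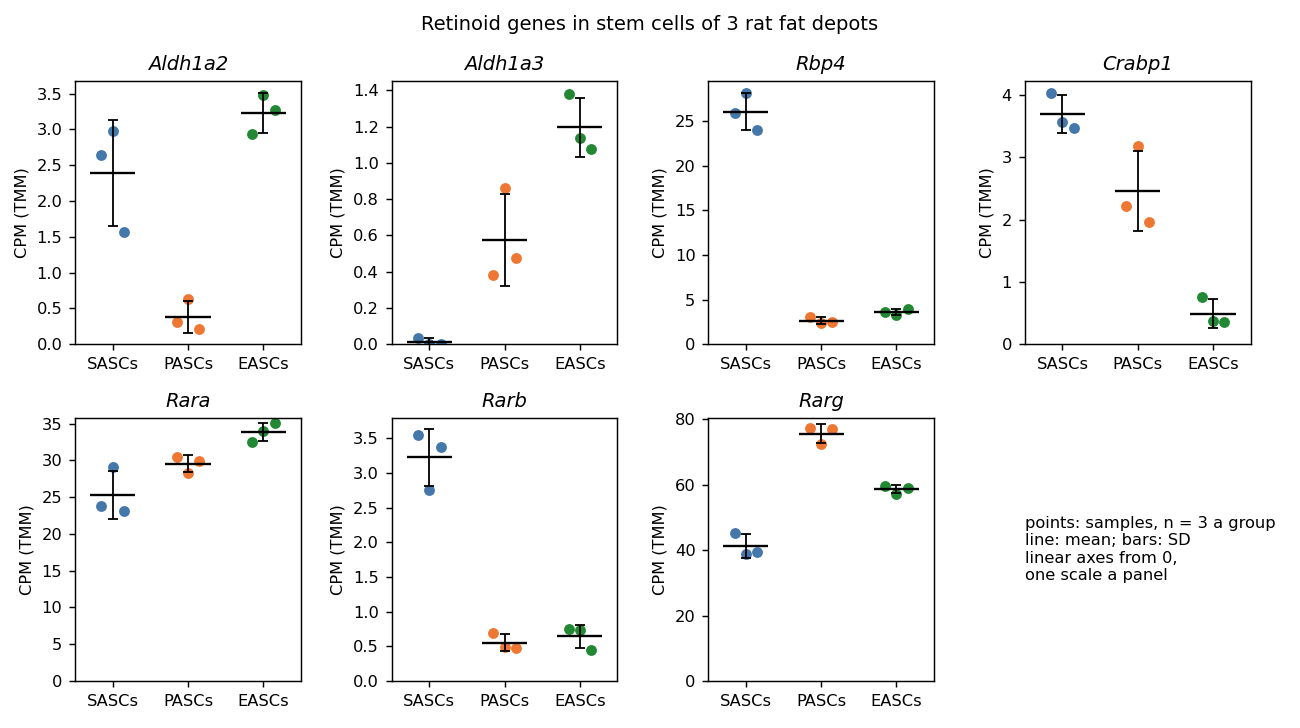
CPM after TMM scaling (y axes, linear from 0, each panel with its own scale) of the 7 retinoid genes tested, by depot (x axes). Points are the 3 samples, horizontal lines are means and bars are SD. Rbp4 and Rarb are high in SASCs alone, Aldh1a2 is low in PASCs alone, Aldh1a3 is near 0 in SASCs, and Crabp1 falls stepwise.

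Among the receptors, Rarb was the one with a large difference. Rarb (gene ID 24706, chromosome 15: 10120206 to 10262599), whose promoter is printed above, read 3.55, 2.76 and 3.37 CPM in SASCs, 0.689, 0.486 and 0.477 CPM in PASCs, and 0.754, 0.730 and 0.447 CPM in EASCs. All SASC samples were above all others, and the visceral groups overlapped. Against SASCs, the log2 fold change of EASCs was -2.31 (SE 0.308, adjusted p = 2.158e-07), and that of PASCs was -2.53 (SE 0.316, adjusted p = 6.72e-08). EASCs and PASCs differed by 0.22 with a 95% interval of -0.56 to 0.996 (adjusted p = 0.716), just short of a fold of 2 at its upper end. The Rarb row overlaps LOC103693816 on the same strand, which held 11 counts in all, against 322 for Rarb.

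Rarg (gene ID 685072, chromosome 7: 143840739 to 143863206, minus strand) read 45.3, 38.7 and 39.5 CPM in SASCs, 77.5, 72.3 and 77.0 CPM in PASCs, and 59.7, 57.2 and 59.1 CPM in EASCs. The groups did not overlap. PASCs were 0.87 higher than SASCs on the log2 scale (SE 0.0658, adjusted p = 3.556e-12) and EASCs were 0.37 lower than PASCs (log2 fold change -0.37, SE 0.0644, adjusted p = 5.898e-05). EASCs were 0.51 higher than SASCs (SE 0.0664, adjusted p = 1.518e-07), but only 0.11 higher (adjusted p = 0.555) when libraries were scaled by total counts without TMM. That scaling moved the median over all genes to -0.39 in EASCs against SASCs and -0.33 in PASCs against SASCs. None of the Rarg differences reached a fold of 2.

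Rara (gene ID 24705, chromosome 10: 86861031 to 86884224) read 23.8, 29.1 and 23.1 CPM in SASCs, 30.5, 28.3 and 29.9 CPM in PASCs, and 32.6, 34.0 and 35.1 CPM in EASCs. SASCs overlapped PASCs through SASCs replicate 2, and EASCs lay above both. The log2 difference of EASCs from SASCs was 0.42 (SE 0.0830, adjusted p = 7.161e-05), and it shrank to 0.02 (adjusted p = 0.935) without TMM. The PASC difference of 0.22 (SE 0.0837, adjusted p = 0.0214) turned to -0.10 (adjusted p = 0.611) without TMM, so no direction is given for Rara. EASCs and PASCs differed by 0.20 (SE 0.0821, adjusted p = 0.0709).

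Per length, Rara and Rarg made up nearly all receptor RNA in every sample. The Rarg share of receptor FPKM was 48.8% ± 3.93 (SD, n = 3) in SASCs, 62.4% ± 0.234 in PASCs and 52.9% ± 1.16 in EASCs. The Rara share was 45.4% ± 4.73, 36.9% (range 36.8% to 37.0%) and 46.2% ± 1.28 in the same order. The PASC samples stood apart from both other groups in these shares, while SASCs and EASCs overlapped. The Rarb share was 5.84% ± 0.870 in SASCs, 0.691% ± 0.133 in PASCs and 0.887% ± 0.246 in EASCs, again with SASCs apart.

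The order of the 9 genes per length differed between depots. In SASCs, Rbp4 led at 28.8 ± 2.31 FPKM, followed by Rarg (8.73 ± 0.768) and Rara (8.13 ± 1.04), whose samples overlapped, then Crabp1 (4.88 ± 0.401). Aldh1a2 (1.07 ± 0.329) and Rarb (1.04 ± 0.133) followed, and also overlapped. In PASCs, Rarg led at 16.03 ± 0.601 FPKM, then Rara (9.48 ± 0.371), with Crabp1 (3.25 ± 0.850) and Rbp4 (2.91 ± 0.413) overlapping. Aldh1a3 came next (0.372 ± 0.164), followed by Rarb (0.178 ± 0.0387) and Aldh1a2 (0.171 ± 0.0991), the samples of Aldh1a2 overlapping those of both. In EASCs, Rarg (12.4 ± 0.287) stood just above Rara (10.9 ± 0.409), followed by Rbp4 (3.99 ± 0.409) and Aldh1a2 (1.44 ± 0.125). Aldh1a3 (0.778 ± 0.106) and Crabp1 (0.652 ± 0.300) overlapped, and Rarb was last at 0.208 ± 0.0551. Aldh1a1 and Crabp2 were at or near 0 in all groups.

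The surrounding pathway was described by a list of 59 further genes, of which 58 were in the table and 39 were tested. In EASCs against SASCs 10 were higher and 9 lower, in PASCs against SASCs 6 were higher and 8 lower, and in EASCs against PASCs 6 were higher and 1 lower. Over all genes tested, the shares higher and lower were 13.6% and 14.2%, 12% and 14.9%, and 5.19% and 2.2% in these comparisons. Scaled by total counts without TMM, 9 were higher and 14 lower in EASCs, and 5 higher and 12 lower in PASCs, against SASCs. The median log2 fold change of the list was 0.00, 0.10 and 0.03, near the medians over all genes given above. Of the genes of retinol binding and uptake, 3 were tested. Against SASCs, 2 were higher and 1 lower in EASCs, and 1 was higher and 1 lower in PASCs. Of 3 tested genes of retinyl ester synthesis and hydrolysis, 2 were lower in each visceral group. The shares over all genes are those given above. Lrat, which esterifies retinol for storage, held 335, 244 and 208 counts in SASCs, 0, 0 and 2 in PASCs and 0 in every EASC sample. SASCs thus stood alone, with EASCs at least 255.5-fold lower against a floor of 3 counts over the group (adjusted p = 8.156e-16). The PASC level was 0.00258 times that of SASCs (95% counting interval 0.000312 to 0.00934, adjusted p = 1.334e-15). Both adjusted p-values for Lrat belong to edgeR's fit, not to the bound or the ratio of summed counts.

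Rbp7, a cellular retinol-binding protein, held 56 counts in SASCs and 3 in each visceral group, with ratios to SASCs of 0.0550 (95% counting interval 0.0110 to 0.169) in EASCs and 0.0543 (0.0109 to 0.167) in PASCs. The retinol receptor gene Stra6 had 1 count in all samples together. RGD1305807, matched by gene ID to the second RBP4 receptor Rbpr2, held 7, 16 and 53 counts in SASCs, PASCs and EASCs, and was higher in EASCs against both (2.88, adjusted p = 0.0004 and 1.70, adjusted p = 0.0247). The call against PASCs was lost without PASCs replicate 1 (adjusted p = 0.156), PASCs replicate 2 (0.0635), EASCs replicate 2 (0.0855) or EASCs replicate 3 (0.108), and in DESeq2 (0.0504). Lipe, hormone-sensitive lipase, which also cleaves retinyl esters, had log2 fold changes of -2.04 (EASCs, adjusted p = 6.24e-12) and -1.52 (PASCs, adjusted p = 8.972e-10) against SASCs.

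The enzymes that interconvert retinol and retinaldehyde differed in both directions, with 3 of 9 tested higher and 1 lower in each visceral group against SASCs, beside 13.6% and 14.2% of all genes in EASCs and 12% and 14.9% in PASCs. The 9 include Rdh14, which was not called and whose row carries the ID and description of another gene, so its identity is uncertain. Dhrs3, which reduces retinaldehyde back to retinol, was 2.41 higher on the log2 scale in EASCs (adjusted p = 1.419e-11), while the PASC difference was 1.64 (adjusted p = 6.039e-08). Dhrs9 held 18 counts in SASCs, 128 in PASCs and 163 in EASCs, with a log2 fold change of 3.19 for EASCs (adjusted p = 7.641e-08). For PASCs it was 2.84 (adjusted p = 8.12e-07). Rdh12 had 3 counts over all SASC samples, against 42 for PASCs (ratio 14.2, 95% counting interval 4.54 to 71.6) and 15 for EASCs (ratio 5.13, 1.45 to 27.7). Its EASC call (adjusted p = 0.0316) was lost without SASCs replicate 2 (0.0739) or replicate 3 (0.105), or without EASCs replicate 1 (0.115) or replicate 2 (0.0835). Rdh5, a retinol dehydrogenase, fell in EASCs by 1.63 on the log2 scale (adjusted p = 0.00172), and its PASC value was -1.47 (adjusted p = 0.00362). Rdh10, the main embryonic retinol dehydrogenase, was not called after TMM scaling, with log2 values of -0.73 in EASCs and -0.36 in PASCs. Its row overlaps Ube2w on the opposite strand, and whether strand was used in counting is not given.

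Of the enzymes that clear retinoic acid, Cyp26b1 was low in PASCs, as Aldh1a2 was. Cyp26b1 read 1.08, 0.849 and 0.342 CPM in the SASC samples, 0.306, 0.0374 and 0.212 CPM in the PASC samples, and 1.21, 0.973 and 1.79 CPM in the EASC samples. All PASC samples lay below the others, and SASCs overlapped EASCs. The PASC values rest on 8, 1 and 4 counts. The gap to SASCs was narrow, since SASCs replicate 3 held 7 counts. The log2 fold change was -2.06 in PASCs against SASCs (SE 0.584, adjusted p = 0.00287) and 2.82 in EASCs against PASCs (SE 0.554, adjusted p = 0.000218), and 0.76 in EASCs against SASCs (adjusted p = 0.126). With the PASC and SASC samples alone Cyp26b1 was left out by the filter on low counts. Cyp26a1 had 2 counts in all. Cyp2s1, a cytochrome that also oxidizes retinoic acid, was higher in EASCs than in SASCs (2.33, adjusted p = 1.406e-08) and PASCs (1.79, adjusted p = 2.558e-06). Aldh8a1, which oxidizes retinaldehyde isomers, was lower in EASCs than in PASCs (-2.74, adjusted p = 0.00118) on 8 against 56 counts. Against SASCs it was lower in EASCs (-1.60, adjusted p = 0.0447), a call lost when any sample but SASCs replicate 1 or EASCs replicate 3 was left out (adjusted p = 0.0557 to 0.275). Its PASC value of 1.14 (adjusted p = 0.0527) was called without SASCs replicate 3 (1.74, adjusted p = 0.0178).

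Among receptor partners, Rxra was lower in EASCs (-1.30, adjusted p = 3.184e-11), and its PASC difference of -0.93 (adjusted p = 1.277e-08) stayed under a fold of 2. Its PASC value passed a fold of 2 without SASCs replicate 1 (-1.01). Without TMM the median over all genes moved to -0.33 in PASCs against SASCs, so a value this near the threshold depends on the scaling. Rxrb was not called, and Rxrg had 3 counts in all. Ppard, the receptor to which FABP5 carries retinoic acid, was lower in EASCs (-1.22, adjusted p = 6.992e-14). Its PASC difference of -0.54 (adjusted p = 2.902e-07) was under a fold of 2. Of 9 coregulators tested, Tbl1xr1 was lower in both visceral groups, with -1.48 for EASCs (adjusted p = 1.284e-17) and -1.38 for PASCs (adjusted p = 5.689e-17). Nrip1, a corepressor bound by liganded receptors, was lower in PASCs (-1.20, adjusted p = 2.67e-12). Its EASC difference of -0.88 (adjusted p = 8.927e-10) was under a fold of 2. Of 12 genes listed as responsive to retinoic acid, 8 were tested.

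The responsive genes did not move together. Tgm2, transglutaminase 2, was at 43.9 FPKM in EASCs against 2.17 in SASCs and 1.64 in PASCs, with a log2 fold change of 4.36 in EASCs against SASCs (adjusted p = 3.832e-24) and -0.40 in PASCs against SASCs. Rarres1 was higher in both visceral groups (2.00 for EASCs, adjusted p = 1.818e-15, and 1.89 for PASCs, adjusted p = 7.772e-15), as was Meis1, a homeobox gene (1.70, adjusted p = 7.342e-18 and 1.13, adjusted p = 1.036e-13). Without TMM the Meis1 value in PASCs was 0.80, under a fold of 2. Nr2f1, an orphan nuclear receptor, was higher in EASCs (1.93, adjusted p = 1.538e-14) and stood at 0.98 in PASCs, where it passed a fold of 2 when SASCs replicate 1 (1.02), PASCs replicate 1 (1.04) or PASCs replicate 2 (1.04) was left out. Rarres2, which encodes the adipokine chemerin, was lower in EASCs at a log2 value of -3.58 (adjusted p = 2.071e-24), and its PASC value was -5.12 (adjusted p = 1.951e-26). Its row overlaps Lrrc61 on the opposite strand. Rarb, itself a responsive gene, was lower in both groups. Nr2f2, Meis2 and Bhlhe40 were not called.

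**Figure D4:**
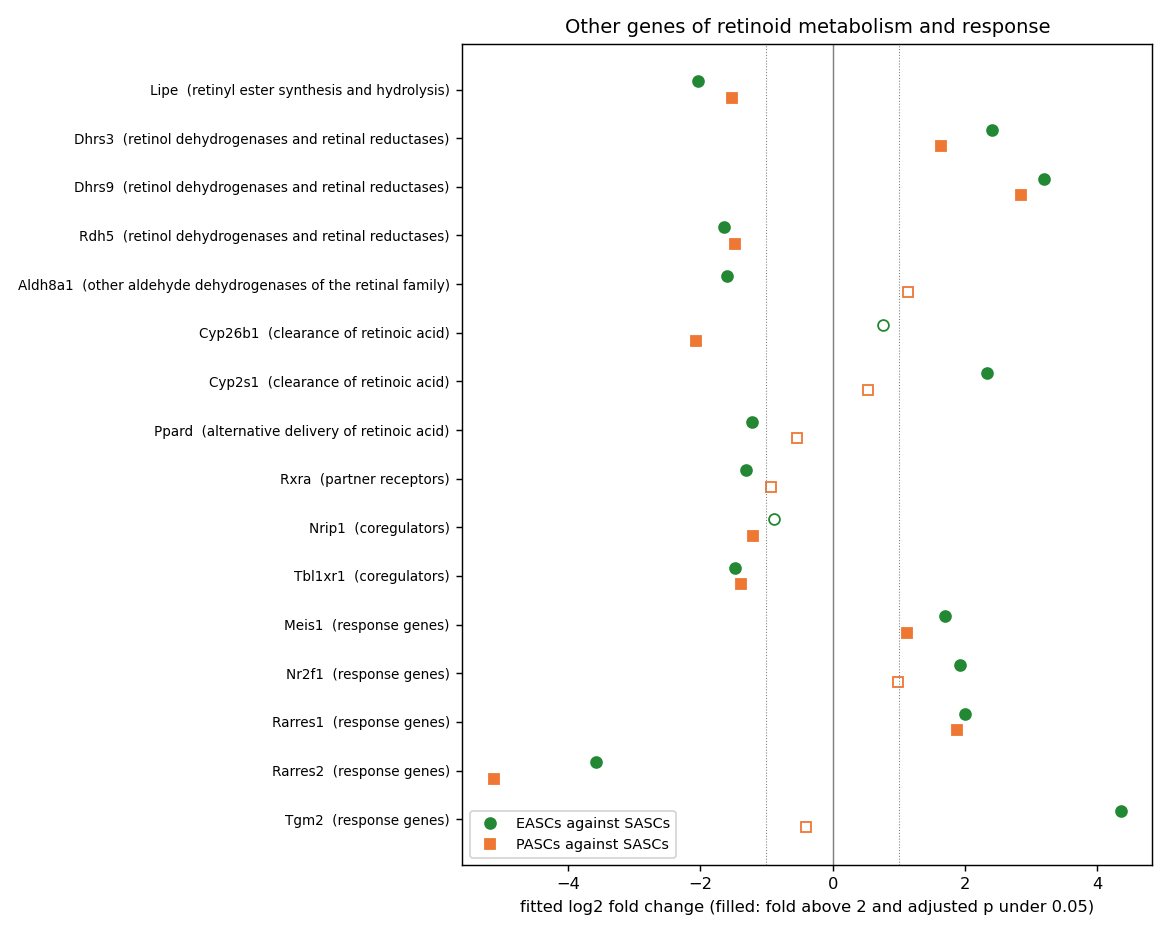
Fitted log2 fold changes (x axis) of called genes in the list of 59 further retinoid genes (y axis, with their roles), for EASCs (circles) and PASCs (squares) against SASCs. Filled symbols passed both thresholds. Genes of retinol binding and uptake, and genes with 3 or fewer counts in a whole group (Lrat and Rdh12), are left out. Tgm2 reaches 4.36 in EASCs while Rarres2 falls to -5.12 in PASCs.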

How the data were processed

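Raw counts per gene in 9 samples were deposited with gene positions and lengths. By the methods, adaptors and low-quality bases were removed, paired-end reads were aligned with TopHat to rn6, and the submitters' processing notes list TopHat2 and rn5. Positions are those of the deposited table. The counting tool, strand setting and treatment of duplicates are not given in the sources used here. Here the deposited counts were tested with edgeR 4.0.16 (R 4.3.3) in 1 model of 3 groups, with TMM, the filterByExpr filter (14770 of 35362 genes kept) and Benjamini-Hochberg adjustment over all of them. CPM and FPKM were computed from counts, effective library sizes and the table's lengths. The study's own differential test was DEGseq, which was not used. The floor was 3 counts and intervals are 95%. The fit was tested on simulated data.

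The 9 genes, the 59 pathway genes and the marker lists were chosen with earlier results of these data known. The text names the 9 genes, called or role-defining pathway genes, markers that move with them, and the 3 genes most correlated with each of the 3 genes of largest change. Some genes that this rule names are not reported here. Promoters are from RefSeq (GRCr8). Every deposited sample column was used. Alternatives were DESeq2 1.42.0, no TMM, TMM without ribosomal RNA genes, no filter, other thresholds, the 2 groups alone, a replicate block and leaving out each sample.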

Additional observations from a re-analysis of the deposited data

How the results depend on the processing

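Of the log2 fold changes of the 7 tested retinoid genes, refitted under every alternative but the other call thresholds, 311 values kept their direction and their side of the threshold, 2 newly passed it (Aldh1a3 in EASCs against PASCs, given above) and 1 turned, Rara in PASCs against SASCs, at -0.10 (adjusted p = 0.611) under total counts without TMM. The same refits covered the pathway genes called in any comparison, and Rdh10, in the comparisons with SASCs. In EASCs against PASCs they covered only the pathway genes called there, so genes newly called in that comparison are not included. These refits gave 728 values of the same direction and side, 23 that lost the threshold and 10 that gained it. With adjusted p alone, 6, 7 and 4 of the 7 genes were called in EASCs against SASCs, PASCs against SASCs and EASCs against PASCs, and with a fold of 1.5 the numbers were 4, 5 and 2, Rarg being added in PASCs against SASCs. The pathway list then had 34, 28 and 20 called genes in EASCs against SASCs, PASCs against SASCs and EASCs against PASCs, and with a fold of 1.5 it had 22 in PASCs against SASCs. Over all genes, 4105, 3979 and 1091 were called, against 10298, 10227 and 4530 with adjusted p alone and 6414, 6405 and 1945 with a fold of 1.5. With 1 sample left out, 4, 4 and 2 to 3 of the 7 genes were called, and 17 to 19, 14 to 16 and 6 to 8 of the pathway list. Samples with the same replicate number did not deviate together (correlations -0.0348 to 0.038). A shared rat or batch may leave too little trace to be seen this way, so whether the numbers pair samples is not known. With the replicate block, 4, 4 and 2 of the genes and 18, 15 and 7 of the pathway list were called, Aldh8a1 losing its EASC call and gaining one in PASCs against SASCs. Low counts limit the precision of Aldh1a3, of Aldh1a2 in PASCs and of Rarb in the visceral groups.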

Other observations

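For the 3 genes with the largest differences, the genes with the most similar profile over the 9 samples were listed by Pearson's r of log2 CPM, among genes with a mean of at least 1 on that scale. The 9 samples form 3 groups of 3, and r is given as a description. For Rbp4, close genes among 11537 were Oplah, 5-oxoprolinase (r = 0.9988), and Ctsd, the lysosomal protease cathepsin D (r = 0.9985). For Aldh1a2, the closest of 11538 genes were Cxcr4, a chemokine receptor (r = 0.9757), Notch4, a Notch receptor of endothelial cells (r = 0.9751), and Fam131b (r = 0.9741). Cxcr4 read 7.10 ± 0.256 CPM (SD, n = 3) in SASCs, 2.55 ± 0.449 in PASCs and 10.6 ± 0.387 in EASCs, the same order as Aldh1a2. For Aldh1a3 they were Ptplad2 (r = 0.9942), Ltn1 (r = 0.9932) and Cdk17 (r = 0.9905). The rise of these genes was far smaller than that of Aldh1a3, since Ptplad2 went from 4.24 ± 0.510 CPM in SASCs to 11.0 ± 1.28 in PASCs and 16.2 ± 1.58 in EASCs.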
